A study of Mus musculus with 12 samples.

Results

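The genes described here were Nqo1 and 8 other genes of the Nrf2 antioxidant response, measured in mouse thymus. They were taken as every probe set whose gene symbol in the platform's annotation was 1 of 9 names: Nqo1, Nfe2l2, Keap1, Gclm, Gclc, Hmox1, Srxn1, Txnrd1 and Gsr. This gave 19 of the 45101 probe sets on the array, and 15 of the 19 averaged at least 5 (log2) across the 12 arrays and entered the fit. A probe set is a group of short probes for 1 transcript region, and its value is a log2 summary of their brightness. Nqo1 was selected on its measured difference between males and females in these same arrays, so that difference is given as a description with no test. The same treatment was given to the other 8 genes for that comparison.

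The 12 arrays were of thymus from mice aged 7 to 8 weeks, with 3 biological replicates in each of 4 groups. The groups were XX females, XXsry males, XY- females and XY-sry males. These names match the core genotypes cross, in which the Y chromosome written Y- lacks Sry and an Sry transgene makes the testis, so that sex chromosomes and gonads vary separately. All males carried Sry and no female did, so an effect of the transgene and an effect of the gonads cannot be told apart. The labels give no strain and no transgene site. Xist, the RNA of the inactive X chromosome, was at 11.10 or higher in all XX and XXsry arrays and at 4.19 or lower in the others. The thymocyte genes Cd8a, Rag1 and Dntt had mean values of 11.36, 11.85 and 11.64, above 99.5%, 99.6% and 99.6% of the probe sets on the array.

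Nrf2, the product of Nfe2l2, is a transcription factor that turns on genes for detoxifying enzymes and for the supply of glutathione and thioredoxin. Keap1 binds Nrf2 and directs its degradation through the ubiquitin ligase Cul3. When electrophiles or oxidants modify Keap1, Nrf2 accumulates, pairs with small Maf proteins and binds antioxidant response elements. Nqo1 reduces quinones and is a classic target of this pathway, and it is also induced by the aryl hydrocarbon receptor. Much of this control acts on the Nrf2 protein, which an array of RNA does not measure.

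The promoters of Nqo1 and Srxn1 are shown because these genes differed between the sexes in opposite directions. RefSeq promoter windows of GRCm38.p6, which run from 250 bases before to 50 bases after a gene's start, were found for 6 of the 9 genes, in 8 windows. Nqo1 lies at chr8:107388225-107403205 on the minus strand, and its window at chr8:107403156-107403455. Srxn1 lies at chr2:152105524-152111376 on the plus strand, and its window at chr2:152105274-152105573. Both are written 5′ to 3′, with capitals marking matches to TGACNNNGC (the antioxidant response element core), TGAGTCAGC (an element with an AP-1 core) or TATAAA (the TATA box).
Nqo1: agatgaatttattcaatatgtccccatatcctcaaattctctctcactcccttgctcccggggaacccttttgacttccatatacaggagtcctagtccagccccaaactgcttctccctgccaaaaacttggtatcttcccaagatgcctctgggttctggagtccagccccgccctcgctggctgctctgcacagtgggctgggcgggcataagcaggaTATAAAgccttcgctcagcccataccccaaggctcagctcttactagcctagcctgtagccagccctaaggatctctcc
Srxn1: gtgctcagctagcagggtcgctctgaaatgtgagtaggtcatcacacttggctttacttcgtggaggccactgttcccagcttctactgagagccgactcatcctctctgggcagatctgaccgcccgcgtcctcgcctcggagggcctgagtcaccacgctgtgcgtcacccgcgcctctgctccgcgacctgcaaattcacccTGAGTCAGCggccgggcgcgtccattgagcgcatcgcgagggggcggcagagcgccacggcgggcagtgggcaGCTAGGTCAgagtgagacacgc
The Nqo1 window held TATAAA, whose first base is at position -29 from the gene's start, and no match to either element on either strand. Bases more than 250 before the start were not searched, so an element farther upstream would be missed. The Srxn1 window held TGAGTCAGC from position -45, and on the other strand a match to TGACNNNGC, read here as GCTAGGTCA. Matches to TGACNNNGC were also found once each in the windows of Nfe2l2 (TGACTCCGC) and Gclm (GCACCGTCA, other strand) and in 1 of 3 Txnrd1 windows (GCTTTGTCA, other strand). The Keap1 window held none. Searching both strands of 32851 windows of 300 bases, 12.4% held TGACNNNGC, 0.414% held TGAGTCAGC, and the TATA box was in 13.6%. The letters GCGTG, the core bound by the aryl hydrocarbon receptor, were found in 32.4% of windows, but not in those of Nqo1 and Nfe2l2. They were found in the windows of Keap1, Gclm and Srxn1, in all 3 Txnrd1 windows and in that of Cyp1b1, a gene described below. These matches are not in capitals above. A link between any of these matches and the sex differences was not tested.

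Nqo1 was about 1.83 times higher in gonadal males than in females, with XX and with XY- chromosomes alike in direction. It was the one member with a gap between all 6 male and all 6 female arrays. In XX females it measured 5.75, 5.64 and 5.48, and in XY- females 5.57, 5.44 and 5.90 (log2). In XXsry males it measured 6.47, 6.45 and 6.56, and in XY-sry males 6.54, 6.47 and 6.53. The lowest of 6 male arrays was 0.55 above the highest of 6 female arrays, and the male arrays lay closer together than the female ones. The group means were 5.62 ± 0.136 in XX, 6.49 ± 0.0586 in XXsry, 5.64 ± 0.237 in XY- and 6.51 ± 0.0379 in XY-sry (SD, n = 3). The difference of males minus females was 0.87 ± 0.0733 (standard error) on the log2 scale, a ratio with a 95% interval of 1.64 to 2.05. Ranked by size, this was the 12th most positive difference among the 17925 probe sets tested. Within XX the difference was 0.87 ± 0.104, and within XY- it was 0.88 ± 0.104.

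**Figure D1:**
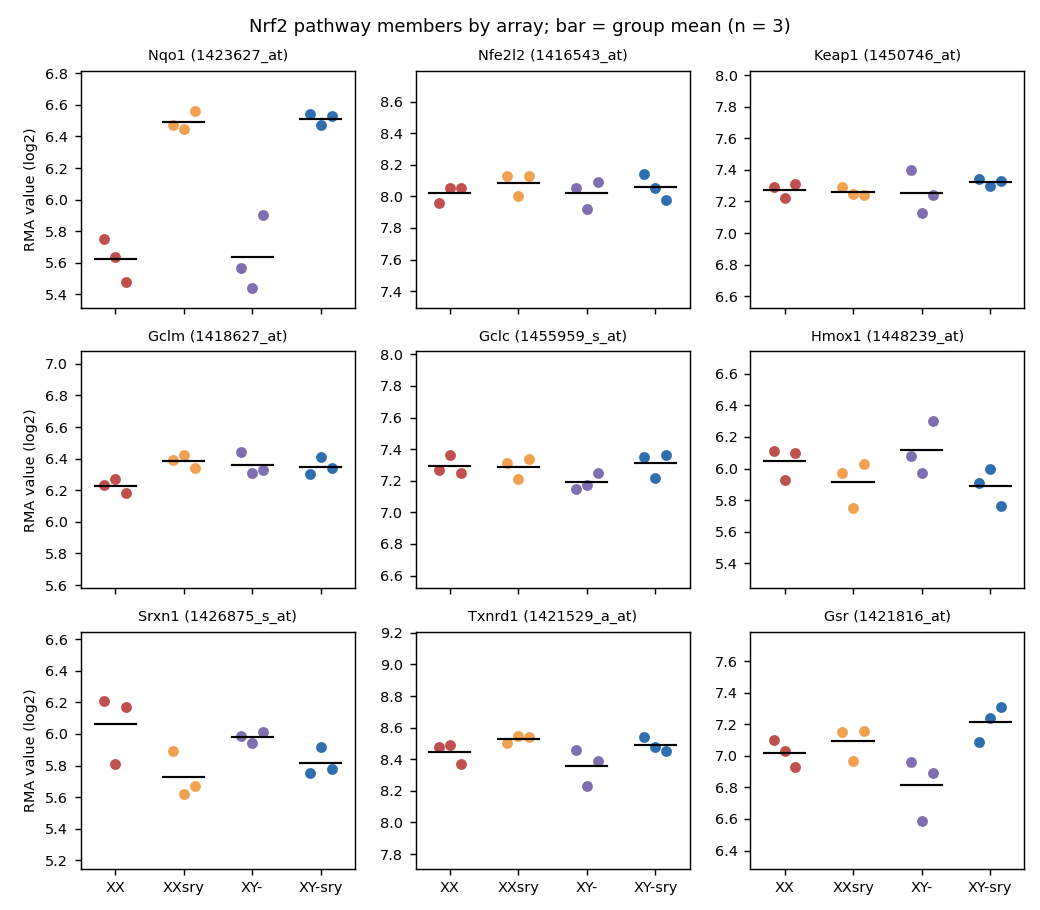
RMA values (log2, y axis) of each member's probe set with the highest mean, in the 4 groups (x axis); points are arrays, bars are group means (n = 3), and every panel spans the same range of 1.5 log2 units around its own mean. For Nqo1 all 6 male arrays lie at 6.45 or higher and all 6 female arrays at 5.90 or lower, while in the other panels the sexes overlap.

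Sex chromosomes made no detectable difference to Nqo1. XX minus XY-, averaged over the sexes, was -0.02 ± 0.0733, with a 95% interval from -0.18 to 0.14 (limma adjusted p = 0.998). In females it was -0.01 ± 0.104 and in males -0.02 ± 0.104 (limma adjusted p = 0.977 and 0.991). The interaction, which is the complement difference in females minus that in males, was 0.01 ± 0.147, with an interval from -0.31 to 0.33 (limma adjusted p = 0.991). The interval allows the 2 sex differences of Nqo1 to differ from each other by up to that amount.

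The regulators Nfe2l2 and Keap1 showed no such gap between the sexes. Nfe2l2 measured 7.96, 8.05 and 8.05 in XX, 8.13, 8.00 and 8.13 in XXsry, 8.05, 7.92 and 8.09 in XY-, and 8.14, 8.05 and 7.98 in XY-sry. The 4 groups overlapped, and males minus females was 0.05 ± 0.0462. Its other probe set had a mean of 2.95, under the filter, and was not tested. Keap1 ran from 7.24 to 7.34 in males and from 7.13 to 7.40 in females by its higher probe set, with a difference of 0.03 ± 0.0456. By its lower probe set the difference was -0.10 ± 0.102. Neither Keap1 direction held throughout: the first turned under 3 of 20 alternatives, among them the actin covariate described below (-0.05), and the second was 0.01 without XY-sry replicate 1.

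Of the subunits of glutamate cysteine ligase, the first enzyme of glutathione synthesis, neither separated the sexes. The modifier subunit Gclm measured 6.23, 6.27 and 6.18 in XX and 6.39, 6.42 and 6.34 in XXsry. It measured 6.44, 6.31 and 6.33 in XY- and 6.30, 6.41 and 6.34 in XY-sry. The XX females were thus below the other 3 groups, and males minus females was 0.16 ± 0.0549 within XX and -0.01 ± 0.0549 within XY-, where the sign turned under 3 of 20 alternatives. For the catalytic subunit Gclc the 2 probe sets gave differences of 0.06 ± 0.0425 and -0.05 ± 0.0615, with overlapping arrays in both. The second of these was 0.05 with the actin covariate.

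Gsr, the enzyme that returns oxidised glutathione to its reduced form, was somewhat higher in males by both of its probe sets. By the higher one it measured 7.10, 7.03 and 6.93 in XX, 7.15, 6.97 and 7.16 in XXsry, 6.96, 6.59 and 6.89 in XY-, and 7.09, 7.24 and 7.31 in XY-sry. The group mean was lowest in XY- females and highest in XY-sry males, and arrays of neighbouring groups overlapped. Males minus females was 0.24 ± 0.0695, made up of 0.07 ± 0.0983 within XX and 0.40 ± 0.0983 within XY-, where the sexes did not overlap. By the second probe set the difference was 0.21 ± 0.0567, with the lowest male array at 6.75 and the highest female array at 6.76. Within XX and within XY- the second probe set gave 0.16 ± 0.0802 and 0.26 ± 0.0802, with no overlap between the sexes in either. The sexes did not overlap for 21.3% of all probe sets within XX and 27.4% within XY-. The interaction of the first probe set, 0.33 ± 0.139, did not pass (limma adjusted p = 0.332).

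Txnrd1, the reductase that recharges thioredoxin, was close in the 4 groups. By its highest probe set it ran from 8.45 to 8.55 in males and from 8.23 to 8.49 in females, with a difference of 0.11 ± 0.0452. A second probe set gave 0.28 ± 0.0991 within XX and -0.06 ± 0.0991 within XY-, and the latter turned under 3 of 19 alternatives, to 0.15 with the actin covariate. The remaining probe set had a mean of 3.03 and was not tested.

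Srxn1 and Hmox1 lay on the other side, lower in males. Srxn1 encodes sulfiredoxin, which repairs overoxidised peroxiredoxins. Its highest probe set measured 6.21, 5.81 and 6.17 in XX, 5.89, 5.62 and 5.67 in XXsry, 5.99, 5.94 and 6.01 in XY-, and 5.75, 5.92 and 5.78 in XY-sry. The male arrays were mostly below the female ones, with 1 XX array, at 5.81, within the male range. Males minus females was -0.25 ± 0.073. A second probe set gave -0.22 ± 0.0499, with no overlap between the sexes within XX or within XY-, against 21.3% and 27.4% of all probe sets. Another, with a mean of 5.07, gave -0.01 ± 0.0398 and turned under 2 of 19 alternatives, so the probe sets of this gene disagreed. Hmox1, the inducible haem oxygenase, measured 6.11, 5.93 and 6.10 in XX, 5.97, 5.75 and 6.03 in XXsry, 6.08, 5.97 and 6.30 in XY-, and 5.91, 6.0 and 5.76 in XY-sry. Its difference was -0.18 ± 0.0715, and the sexes overlapped between 5.93 and 6.03.

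Over the 15 probe sets, 9 differences of males minus females were positive and 6 negative, with a median of 0.05, beside a median of 0.02 over all probe sets tested. Without Nqo1 the 14 others ran from -0.25 (Srxn1) to 0.24 (Gsr), and the 95% interval of each lay within 0.5 of 0. Male and female arrays did not overlap for 1 of the 15, Nqo1, which was higher in males. This was so for 3.49% of all probe sets tested, and for 2.28% in the direction of Nqo1. Within XX they did not overlap for 6 of 15, against 21.3% of all, and within XY- for 5 of 15, against 27.4% of all. These shares come from the comparison that chose Nqo1, and nothing is read from them.

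**Figure D2:**
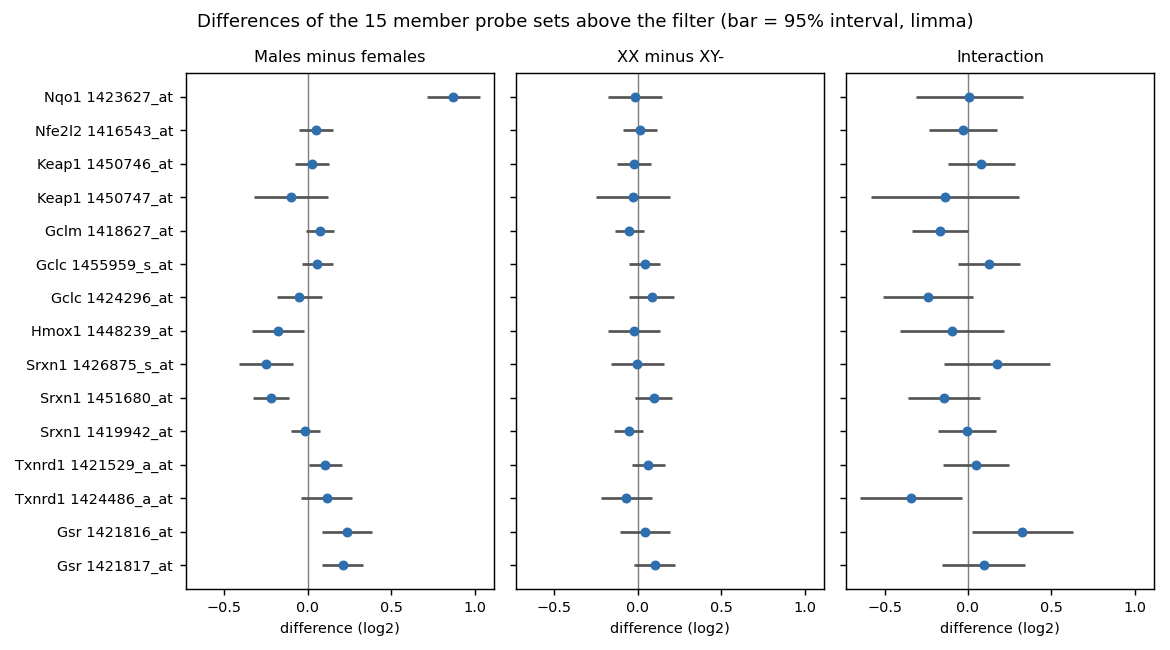
Differences on the log2 scale (x axis) of the 15 member probe sets that passed the filter (y axis) for males minus females, XX minus XY- and the interaction; points are limma estimates and bars 95% intervals (12 arrays). Nqo1 stands at 0.87 in the first panel and at -0.02 in the second, where all 15 estimates lie between -0.07 and 0.10.

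The sex chromosome complement changed none of the members by limma, in which Benjamini-Hochberg adjusted p-values over all 17925 probe sets were compared with 0.05. For XX minus XY- 0 of 15 passed, beside 0.0893% of all probe sets, and 0 of 15 had an unadjusted p under 0.05. Shares of all probe sets at that unadjusted level are not given, so nothing is read from such counts, here or in later paragraphs. The differences ran from -0.07 for a Txnrd1 probe set to 0.10 for a Gsr probe set, and the 95% intervals together spanned -0.25 to 0.22. Differences of the complement as large as that of Nqo1 between the sexes thus lay outside every interval. Within females 0 of 15 passed (limma; 0.0781% of all) and 2 had an unadjusted p under 0.05. These were Gclm, at -0.13 ± 0.0549, and a Txnrd1 probe set, at -0.24 ± 0.0991 (limma adjusted p = 0.425 and 0.426). With array weights Gclm in females was -0.20 ± 0.0401 and passed (limma adjusted p = 0.0179), the only member to pass under any alternative. The share of all probe sets past for this comparison with array weights is not given here, so nothing is read from that call. For the sexes, array weights took the share of all probe sets from 6.56% to 24.3%.

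Within males 0 of 15 passed for the complement (limma; 0.128% of all) and 2 had an unadjusted p under 0.05. These were a Srxn1 probe set, at 0.17 ± 0.0705, and a Gclc probe set, at 0.20 ± 0.087 (limma adjusted p = 0.53 and 0.54). XX and XY- arrays did not overlap for 2 of 15 in females and 3 of 15 in males, against 13.4% and 14.2% of all probe sets. For the interaction 0 of 15 passed (limma; 1.29% of all), with 2 at an unadjusted p under 0.05, which were the Gsr probe set above and a Txnrd1 probe set at -0.34 ± 0.14 (limma adjusted p = 0.312). The interaction intervals spanned -0.65 to 0.63 over the members, so this comparison was the least precise. In simulated data the fit recovered 40.5% of interactions of 0.5 and 93% of interactions of 1.

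The other genes of the pathway were 108 genes in 9 lists, of which 99 were on the array with a probe set of their own and 73 passed the filter. Each gene was represented by the probe set of highest mean. In males 6 of the 73 rose and 3 fell (limma), or 9 in all, beside 3.95% of all probe sets that rose and 2.61% that fell (6.56% in all). The median difference was 0.02, as over all probe sets tested. For the complement 0 of 73 passed, with 4 at an unadjusted p under 0.05, and for the interaction 0 of 73 passed, with 9 at an unadjusted p under 0.05 (limma). Without the shares of all probe sets at the unadjusted level, nothing is read from the 4 and the 9. Within XX 3 of 73 passed for the sexes (Cyp1b1 and Gpx3 up, Mgst2 down), beside 0.742% of all probe sets. Within XY- 4 of 73 passed (Cyp1b1, Gss and Sod1 up, Bach2 down), beside 8.64% of all. The count over both ran from 3 to 10 with 1 array left out. It was 3 without XX replicate 1, XXsry replicate 3 or XY- replicate 1, and 4 without XX replicate 3, XXsry replicate 2 or XY-sry replicate 1. It was 5 without XX replicate 2 or XY-sry replicate 2 or 3, and 18 with array weights. Without XXsry replicate 1, 5 rose and 1 fell. The rises and falls were 6 and 4 without XY- replicate 2, and 6 and 2 without XY- replicate 3. The share of all probe sets past the threshold moved as well. That share was 3.36% without XX replicate 1, 2.91% without XXsry replicate 3 and 4.58% without XY- replicate 1. Without XY- replicate 2 it was 9.73%. With array weights it was 24.3%, beside the 18 of 73. Cyp1b1 and Gpx3 passed whichever array was left out.

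Cyp1b1, a cytochrome P450 induced by the aryl hydrocarbon receptor, had the most positive difference of the 73 pathway genes. It measured 5.38, 5.15 and 5.37 in XX, 6.24, 5.99 and 6.17 in XXsry, 5.46, 5.05 and 5.41 in XY-, and 6.04, 5.89 and 5.95 in XY-sry. All male arrays lay above all female arrays, and the gene rose by 0.74 ± 0.077 in males (limma adjusted p = 0.00044). Its other probe sets lay below the filter. In the same list Ahr, the receptor itself, was at 0.28 ± 0.0971 and did not pass (limma adjusted p = 0.109). Its partner Arnt was at 0.09 and its target Tiparp at 0.03. Cyp1a1, Cyp1a2 and Ahrr lay below the filter and have no test.

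Glutathione genes moved in both directions. Gpx3, a secreted glutathione peroxidase, rose by 0.31 ± 0.0534 (limma adjusted p = 0.00838). It measured 7.67, 7.67 and 7.73 in XX and 8.25, 8.28 and 8.12 in XXsry, but 7.69, 7.82 and 7.96 in XY- and 7.97, 7.80 and 7.95 in XY-sry. The step was thus clear within XX and the arrays overlapped within XY-, while the interaction, -0.44 ± 0.107, did not pass (limma adjusted p = 0.0729). Gss, glutathione synthetase, rose by 0.19 ± 0.0404 with no overlap between the sexes (limma adjusted p = 0.0232), although its second probe set was at 0.05 and did not pass. The transferases Gsta4 and Gstp1, which conjugate glutathione to electrophiles, rose by 0.32 ± 0.0751 and 0.14 ± 0.0376 (limma adjusted p = 0.0291 and 0.0499).

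Mgst2, a membrane-bound transferase, fell by 0.76 ± 0.172 (limma adjusted p = 0.0266). It measured 7.16, 7.09 and 7.34 in XX and 5.68, 6.04 and 6.12 in XXsry. In XY- it measured 6.84, 6.10 and 6.98, and in XY-sry 6.13, 6.90 and 6.09. The drop was 1.25 within XX, while within XY- the arrays overlapped. With 1 array left out at a time, Gsta4 and Mgst2 each failed to pass in 7 of 12 cases, Gstp1 in 11 and Gss in 3.

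In the thioredoxin and peroxiredoxin list 1 of 11 genes passed, downward: Sesn1, a sestrin induced by p53 and FoxO factors, fell by 0.25 ± 0.0629 (limma adjusted p = 0.0399). Its male arrays ran from 8.98 to 9.11 and its female arrays from 9.14 to 9.46. A further 2 of its probe sets fell, by 0.35 and 0.30, and another was at 0.01. In the haem and iron list Fech, which inserts iron into haem, rose by 0.20 ± 0.0503 and Slc40a1, the iron exporter ferroportin, fell by 0.45 ± 0.103 (limma adjusted p = 0.0354 and 0.0284). A second Slc40a1 probe set fell by 0.40, and the 2 other Fech probe sets tested, at 0.17 and 0.21, did not pass. Without 1 array Sesn1 failed to pass in 10 of 12 cases, Fech in 8 and Slc40a1 in 6.

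None of the 11 Nrf2 regulators, 3 superoxide and peroxide enzymes, 7 NADPH enzymes or 11 quinone, carbonyl and conjugation enzymes passed for the sexes over both complements (limma), with 2, 1, 2 and 1 at an unadjusted p under 0.05. Among the regulators Sqstm1, the adaptor that sequesters Keap1, was at 0.03 and the competitor Bach1 at -0.06. Its relative Bach2 was at -0.29 over both complements (limma adjusted p = 0.0659) and fell by 0.56 ± 0.119 within XY- (limma adjusted p = 0.0163). The superoxide dismutase Sod1 was at 0.15 ± 0.0444 (limma adjusted p = 0.0684), made up of 0.03 within XX and 0.26 within XY-, and catalase, Cat, at -0.06. The pentose phosphate enzymes Tkt and Taldo1, which feed NADPH supply, measured 10.54 to 10.70 and 9.93 to 9.95 as group means. In the conjugation list Akr1a1 and Abcc5 had group means of 11.57 to 11.61 and 8.22 to 8.27.

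**Figure D3:**
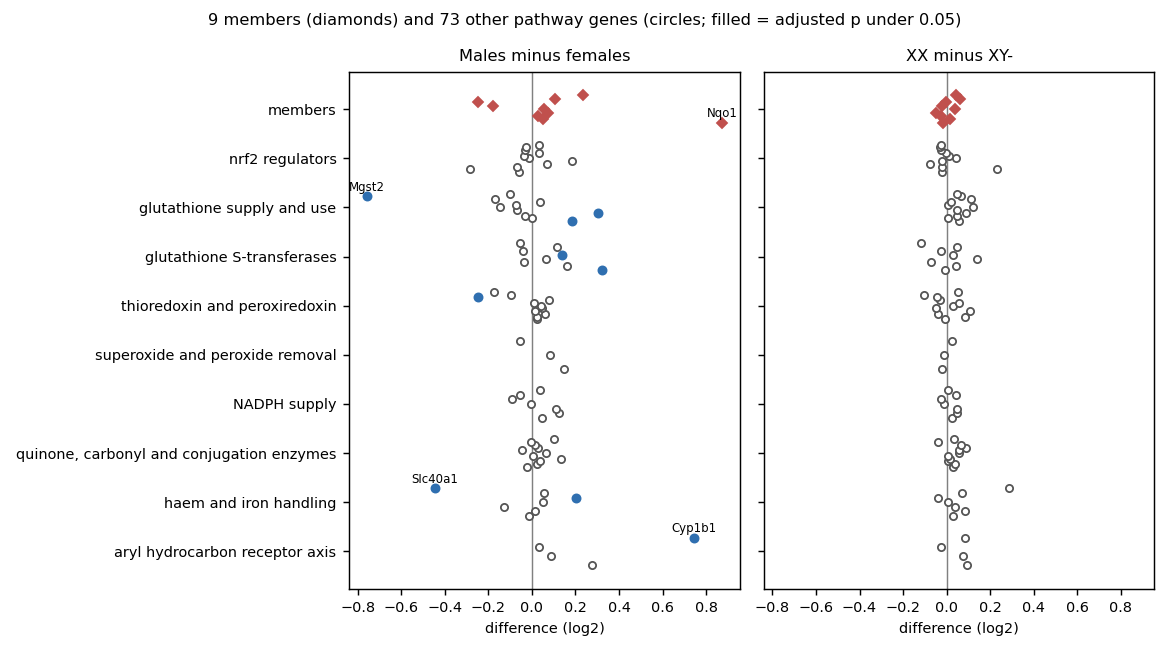
Differences on the log2 scale (x axis) for males minus females (left) and XX minus XY- (right), by gene list (y axis). Diamonds are the 9 members and circles the 73 other pathway genes, 1 probe set per gene, filled where limma's adjusted p was under 0.05; in the left panel Nqo1 (0.87), Cyp1b1 (0.74) and Mgst2 (-0.76) lie farthest out, and in the right panel no circle is filled.

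The genes whose profile over the 12 arrays was most like that of Nqo1 were ranked by Pearson correlation among 9495 genes, by 1 probe set each. The arrays fall into a male and a female cluster, so the measure mainly ranks genes that split the same way, and it is a description. The 8 highest were Fgfr2 (0.98), Igfbp5 (0.97), Ltbp3 (0.97), Tgfbr3 (0.97), Sry (0.96), Oat (0.96), Tsen34 (0.96) and Pltp (0.96). Fgfr2 is the receptor of growth factors that sustain thymic epithelium. It measured 6.40, 7.12, 6.52 and 7.03 as means of XX, XXsry, XY- and XY-sry, a difference of 0.61 between the sexes. Oat, a mitochondrial aminotransferase, differed by 0.39, and Pltp, which transfers phospholipids between lipoproteins, by 0.29. The lowest correlations were those of Ttc39a, Cxcr3, Cxcr6 and Cstb, at -0.93, -0.93, -0.93 and -0.92.

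None of the other members was among the 8 highest of that ranking. Gsr came at rank 679 and Txnrd1 at 900 of these genes, with correlations of 0.72 and 0.68, and the second Gsr probe set had 0.81. Gclc, Gclm and Nfe2l2 had 0.48, 0.47 and 0.45, Keap1 0.22, Hmox1 -0.48 and Srxn1 -0.68. When the group means were taken out, so that only the spread among replicates was left, the 8 genes closest to Nqo1 were Polr2e, Defb6, Fam3c, Grk3, Wfdc2, Ltc4s, Efr3a and Slc2a1, with correlations from 0.96 to 0.92. The Sry probe set read 5.35 and 5.48 as means in XX and XY- females, which lack the gene. None of the 8 genes was among the first 8, while Fgfr2 had 0.85 by this measure and Sry 0.31. By each member's probe set of highest mean, Gsr had 0.56, Hmox1 0.55, Txnrd1 0.54, Gclc 0.53 and Nfe2l2 0.37. Keap1 had 0.08, Srxn1 0.03 and Gclm -0.07. The second probe set of Gsr had 0.79 and that of Gclc -0.54.

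**Figure D4:**
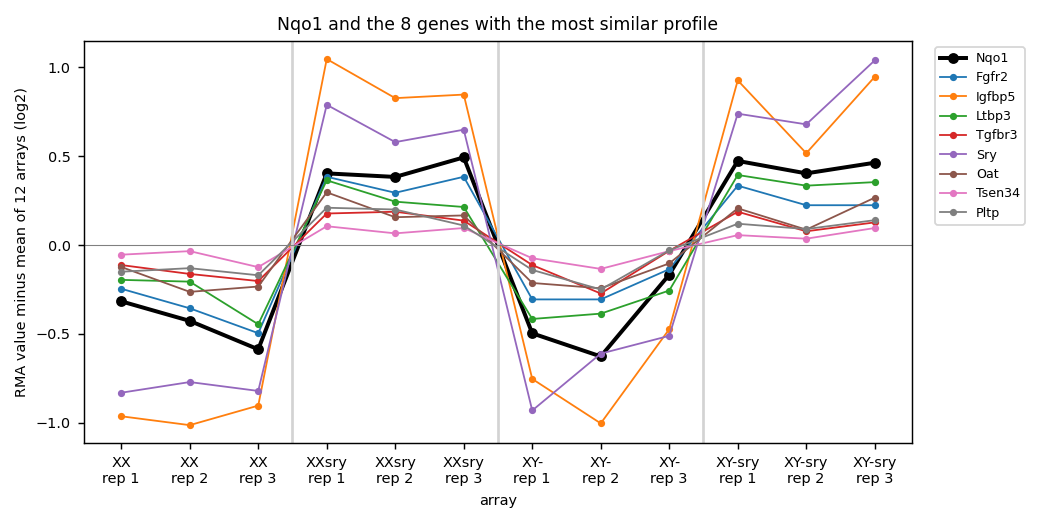
RMA values minus each gene's mean over the arrays (log2, y axis) for Nqo1 (thick black line) and the 8 genes of most similar profile, across the 12 arrays in their groups (x axis). All 9 genes sit above their mean in the 6 male arrays and below it in the 6 female arrays; the lines join arrays only to guide the eye.

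Thymus is a mixture of cells, and in bulk RNA more cells of a type and more RNA per cell cannot be told apart. Marker genes of thymocytes and other cell types were therefore set beside Nqo1. The 8 thymocyte genes on the array had a mean level of 9.99 to 10.06 in males and 10.01 to 10.12 in females. Of these 8, 1 passed, Rag2 at -0.19 (limma adjusted p = 0.0222), with 3 at an unadjusted p under 0.05. The adipocyte and red cell means also overlapped between the sexes, with 0 of 4 and 0 of 1 genes past (limma). The 12 cortical epithelium genes had a mean level of 8.60 to 8.71 in male arrays and 8.43 to 8.54 in female arrays, with no overlap and a difference of 0.14. Of the 11 tested, 3 rose in males (limma), Isl1 by 0.69, Dll4 by 0.27 and Cxcl12 by 0.21, while Psmb11 and Prss16, which define these cells, were at 0.13 and 0.11 and did not pass. Foxn1 was at 0.22, Krt18 at 0.10, Ccl25 at 0.06 and Krt8 at 0.03. Ly75, at -0.06, and Ctsl, at -0.095, went the other way, and none of these passed. The 8 fibroblast genes had 6.51 to 6.71 in males and 6.26 to 6.59 in females, and 3 of 6 tested rose, Fn1 by 0.64, Lum by 0.48 and Dcn by 0.40. The other tested fibroblast genes did not pass, with Pdgfrb at 0.10, Col1a2 at -0.065 and Col3a1 at -0.24. Below the filter, Pdgfra was at 0.42 and Col1a1 at -0.047. The 6 endothelial genes had 4.61 to 4.84 and 4.40 to 4.65, with 0 of 2 tested past (limma; 0 at an unadjusted p under 0.05), and Cdh5, Tie1, Emcn and Vwf lay below the filter. The mean of the 9 medullary epithelium genes on the array overlapped between the sexes, at 7.22 to 7.39 and 7.24 to 7.52, but single genes moved. Of the 9, Trp63 rose by 0.61 and Krt17 fell by 0.28 (limma adjusted p = 0.000524 and 0.0244), with 5 at an unadjusted p under 0.05, and Aire was at -0.25 and did not pass.

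Macrophage and dendritic cell markers and neutrophil markers averaged lower in males, with overlap between the sexes in both lists. The macrophage and dendritic cell mean ran from 7.86 to 8.18 in males and 8.01 to 8.39 in females, a difference of -0.16. Of these markers 0 of 11 passed singly (limma, with 5 at an unadjusted p under 0.05). C1qa was at -0.25, Csf1r at -0.20 and Itgax at -0.003. Neutrophil markers had 4.66 to 5.73 in males and 5.53 to 6.87 in females, a difference of -0.81. Of these markers 0 of 5 passed (limma, with 4 at an unadjusted p under 0.05). S100a8 was at -1.33, S100a9 at -1.40 and Ltf at -0.24. The part of any of these cell types in the differences of Nqo1, Hmox1 or the pathway genes was not tested.

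**Figure D5:**
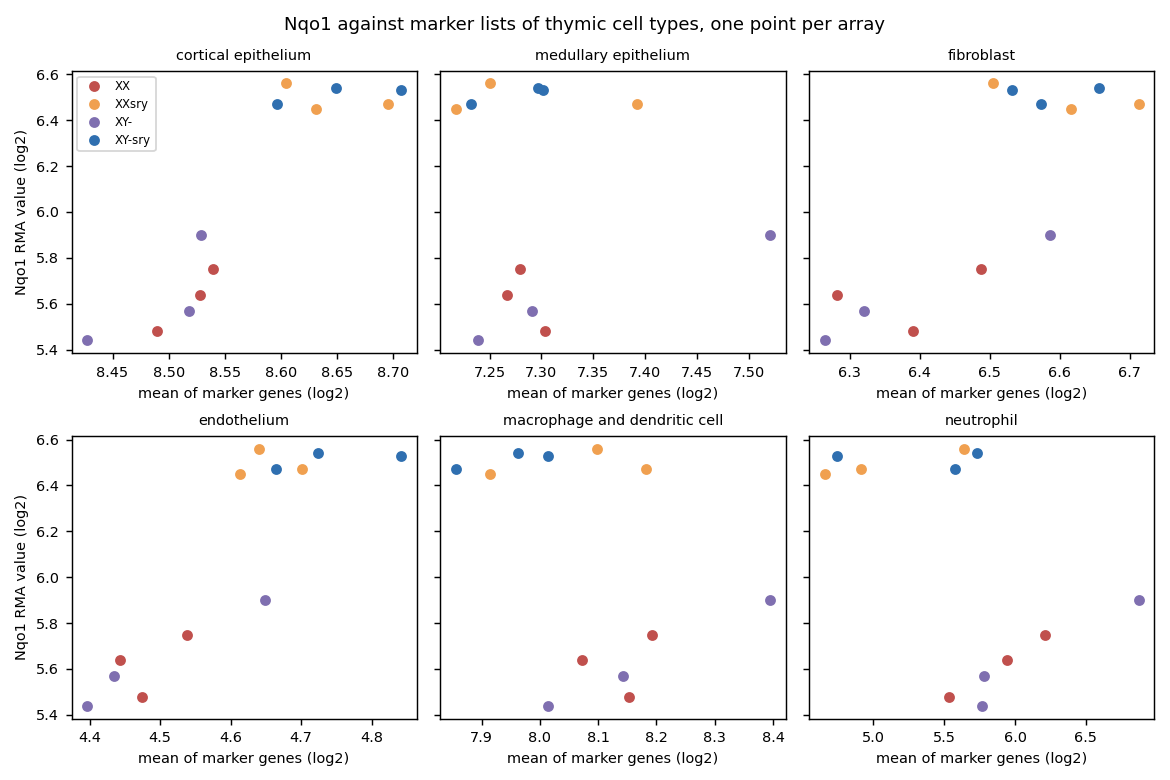
Nqo1 (RMA value, log2, y axis) against the mean log2 value of 6 lists of marker genes (x axis), 1 point per array, coloured by group. On the x axis the cortical epithelium list separates male arrays (8.60 and above) from female arrays (8.54 and below), and the other lists overlap between the sexes.

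The log2 difference between the 3′ and 5′ actin control probe sets, a sign of RNA integrity, ran from 0.71 to 0.83 in males and from 0.51 to 0.77 in females. It was highest in XY-sry, at a mean of 0.79, and lowest in XY-, at 0.63, while XX and XXsry had the same mean of 0.73. With this measure as a covariate the Nqo1 difference was 0.80, and it was 0.87 within XX and 0.72 within XY-. For the second Gclc probe set, the second Txnrd1 probe set within XY- and the higher Keap1 probe set the direction turned, as given above. The Nfe2l2 difference within XY- turned as well, from 0.04 to -0.03. Of the 9 pathway genes that passed for the sexes, 6 passed with the covariate, and Gsta4, Gstp1 and Fech did not.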

How the data were processed

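Total RNA of 12 mouse thymus samples had been labelled with biotin, from 10 µg per array per the labels, and hybridised to 1-colour Affymetrix mouse arrays. The deposited values are log2 probe set summaries that the authors made with RMA, per the submitters' processing notes, in a version not given in the sources used here. Array medians lay between 4.02 and 4.10. Because RMA normalizes arrays to each other and shrinks low signals, ratios of dim probe sets are understated. Precision is set by the 3 arrays per group; standard errors had a median of 0.0547 for a main effect and 0.109 for the interaction.

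The array has 45101 probe sets. After removing 64 controls, the 17925 that averaged 5 or more were tested. The platform table names 34958 with 1 gene symbol, 932 with several and 9211 with none. Only single-symbol probe sets were named. A model of 4 group means over all 12 arrays was fitted by limma 3.58.1 under R 4.3.3 (8 residual and 3.71 prior degrees of freedom), and contrasts were called at a Benjamini-Hochberg adjusted p under 0.05 over all 17925. The fit was tested on simulated data: of 200 complement differences of 0.5 it recovered 93.5%, with 12 false calls among 199. Gene lists used 1 probe set per gene, the highest mean. Replicates are biological per the labels, which do not say that shared numbers mark a shared batch. Members, lists and tests were chosen with earlier results of these data known.

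Named genes were all members, each pathway gene past the threshold for complement, sex or interaction, or the 2 highest-expressed of a list with none past. They also include the 8 genes most like and 4 least like Nqo1 over the arrays, and the 8 most like it in deviations from group means. Other pathway and marker genes are named for their role, after their values were seen. Alternatives were no filter, a filter at 6, median centring, quantile normalization, a trend with robust settings, array weights, the replicate number as a block, the actin covariate, only the groups compared, and each array left out. Figures were drawn with matplotlib 3.10.9.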

Additional observations from a re-analysis of the deposited data

Results flagged for a closer look

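Among the 15 member probe sets and the 73 other pathway genes, 1 gene had groups that moved in opposite directions with no overlap. The share of all probe sets that meet this rule is not given here, so nothing is read from the count. Complement arrays did not overlap for 13.4% of all probe sets in females and 14.2% in males. For the sexes the shares were 21.3% within XX and 27.4% within XY-. Pgd, 6-phosphogluconate dehydrogenase of the pentose phosphate pathway, measured 8.97, 9.02 and 8.86 in XX females and 8.72, 8.85 and 8.81 in XY- females, so XX lay above XY- by 0.16. In males the order was the reverse: 8.84, 8.88 and 8.88 in XXsry and 8.93, 8.92 and 9.06 in XY-sry, a difference of -0.10. The interaction was 0.26 ± 0.0861 and did not pass (limma adjusted p = 0.201), so the opposite directions were not shown to differ by this test; with array weights it was 0.32 and passed (limma adjusted p = 0.0127). The probe set is of the kind that can share probes with related sequences.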

How the results depend on the processing

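The sex difference of Nqo1 stayed between 0.80 and 0.94 under every alternative, 0.82 to 0.94 with 1 array left out, 0.80 to 0.93 within XX and 0.78 to 1.01 within XY-; within XY- it moved to 0.72 with the actin covariate. Counts of members past the threshold stayed at 0 for the complement and the interaction, and the count within females and males was 1 with array weights (Gclm). The share of all probe sets past within females with array weights is not given here, so nothing is read from that call. Of 1176 member values recomputed for complement and interaction, 14 moved by over 1 SD without passing. The 9 pathway genes past for the sexes became 4 with no filter (all 4 among the 9), 18 with array weights and 3 to 10 with 1 array left out. Beside these, 6.56% of all probe sets passed in the main fit, 1.54% with no filter and 24.3% with array weights. With 1 array left out that share ran from 2.91% to 9.73%. For the interaction the count of 0 became 1 with the trend and robust settings (Gpx3) and 3 with array weights (Mgst3, Pgd and Nqo2). The share of all probe sets past for the interaction under these settings is not given here, so nothing is read from these counts. The share of rises among the calls for the sexes, 66.7%, was 75% with median centring, 57.1% with quantile normalization, 50% with no filter or array weights and 42.9% with the actin covariate. With 1 array left out it ran from 60% to 100%, the latter without XX replicate 1, XXsry replicate 2 or XY-sry replicate 3. With the replicate block the count was 9, with 8 of them shared (Gstp1 was lost), and the Nqo1 difference was 0.87. Same-numbered arrays of different groups correlated in their deviations from -0.08 to 0.31, over 0.1 in 8 of 18 pairs. Differently numbered arrays of different groups correlated from -0.33 to 0.25, and their share over 0.1 is not given here. For 8 of 12 arrays the best correlation was with an array of their own number. What the shared numbers mean is not stated by the labels. The main fit therefore did not pair by number, and the replicate block was run as the alternative that did.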
